A study of Homo sapiens with 20 samples.

Results

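The 7 genes described here are regulators of p53 other than the MDM2 and MDM4 pair: PPM1D, CCNG1, RCHY1, COP1, USP7, PPP1R13L and PPP1R13B. They were taken by gene name, all 7 were found among the 27697 mRNA and lncRNA genes tested, and their estimated counts were summed over 86 transcripts. They lie on 7 different chromosomes. The NGP nutlin dataset holds poly(A) RNA of NGP, a human neuroblastoma cell line. Nutlin-3, in racemic form and at 8 µM, was given to 10 samples, and the other 10 samples had ethanol as vehicle. The study calls the samples biological replicates, and all of them come from this single cell line. The length of treatment was not given in the sources used here.

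p53 is a transcription factor that is kept at a low level in unstressed cells, mainly because the ubiquitin ligase MDM2 binds it and marks it for degradation. Nutlin-3 occupies the p53 pocket of MDM2, so p53 accumulates and switches on its targets, several of which act back on p53. The 7 genes act on p53 at different points. PPM1D (Wip1) is a phosphatase that removes phosphate groups from p53 and from the kinases of the DNA damage response. CCNG1 (cyclin G1) brings the phosphatase PP2A to MDM2. RCHY1 (Pirh2) and COP1 are ubiquitin ligases for p53. USP7 (HAUSP) is a deubiquitinase that removes ubiquitin from MDM2 as well as from p53, so that it can act in both directions. PPP1R13L (iASPP) is the inhibitory member of the ASPP family, whereas PPP1R13B (ASPP1) is known to stimulate the apoptotic function of p53, and the name of negative regulator does not cover it.

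Sequences that match the p53 response element are shown first, since that element is how p53 acts on a target gene. The element consists of a pair of 10-base arms, each with a C and a G in its core, with up to 13 bases in between. A match here kept the core C and G of both arms and had at most 2 other mismatches, within 2000 bases of the gene start of GENCODE release 44 on GRCh38. The element is its own reverse complement, so that both strands are covered. The arms are in capitals and any bases between them in lower case, 5′ to 3′ on the strand of the gene.
CCNG1, chr5:163437926-163437945, plus strand, intron: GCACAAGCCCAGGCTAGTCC
CCNG1, chr5:163438001-163438023, plus strand, intron: GACCCAGTCCcagGGACTAGCCT
PPM1D, chr17:60600237-60600260, plus strand, exon 1 before the coding sequence: GGCCCAGCTCtcgcGGACAAGTCC
COP1, chr1:176206047-176206075, minus strand, intron: AAGCATGGATgtcttataaAGACATGCTT
RCHY1, chr4:75513203-75513229, minus strand, intron: AAGCAAGTTCaagtctcAGGCCTGTAC
PPP1R13L, chr19:45407607-45407626, minus strand, upstream of the gene: GAACATGTTCCACCAAGCCT
MDM2, for comparison, chr12:68808923-68808942, plus strand, intron: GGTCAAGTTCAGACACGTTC

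Of the 7 genes 5 held such a match, and no match was found for USP7 and PPP1R13B in this window. Among all 19563 genes scanned the percentage with a match was 32.6%. With at most 1 mismatch it was 5.75%, and of the 7 genes only CCNG1 met it, with the first of its sequences, 357 bases after the gene start. The PPM1D match began 44 bases after the gene start. With 0 mismatches the percentage was 0.491%, and none of the 7 genes was among them. In the RefSeq promoter windows, which run from 250 bases before to 50 bases after a start on GRCh38.p14, 2.93% of 35116 windows held a match. All 7 genes were found there, and 0 of their 14 windows held one. The window of PPM1D ended at position 60600242, inside the match shown above, so it could not hold that match whole. A match is a description of the letters, and binding was not measured here.

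Depth ranged from 14455477 to 19532971 estimated counts per sample, with a median of 17819527 for vehicle and 15675936 for nutlin. Levels are given in CPM, the counts of a gene scaled to a common library size, with TMM normalization. TMM factors were between 0.88 and 0.97 in the vehicle and between 1.01 and 1.096 in the nutlin samples. Of 10 adrenergic neuroblastoma markers, 10 had at least 1 TPM (a level per transcript length) in every sample, with vehicle medians from 58.9 to 1680 TPM. This held for 1 of 5 fibroblast, 0 of 4 leukocyte and 0 of 3 epithelial markers. The summed level of the fibroblast markers was between 4.77 and 9.03 TPM in the vehicle and between 8.39 and 12.5 TPM in the nutlin samples. These markers did not move together. From vehicle to nutlin the median of COL1A1 went from 2.4 to 8.13 TPM and that of LUM from 2.21 to 0.584 TPM. The medians of COL1A2, COL3A1 and DCN stayed below 1 TPM. The summed level of the epithelial markers was between 0.275 and 1.05 TPM in the vehicle and between 0.986 and 2.34 TPM in the nutlin samples. The part of these levels in the results was not tested.

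PPM1D, CCNG1 and PPP1R13B were significantly up in the nutlin samples, by 1.97 to 2.82-fold in CPM. USP7, COP1 and PPP1R13L were significantly down, by between 13% and 37%, and RCHY1 was not called. Of the 7 genes 3 were thus called up and 3 down at 5% FDR with edgeR. Of all genes tested 58.8% were significantly differentially expressed (SDE), 32.3% up and 26.5% down, so that calls in either direction were common. The median log2 fold change (LFC) was 0.15 over the 7 genes and 0.19 over all genes tested. For the 17351 mRNA genes alone it was -0.01, with 32.4% up and 38.5% down. In bulk samples, fewer cells that express a gene and less RNA per cell cannot be told apart.

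PPM1D had the largest LFC of the 7 genes. Its level was between 53.7 and 65.0 CPM in the vehicle samples, with a median of 58.2, and between 137 and 177 CPM in the nutlin samples, with a median of 166. All 10 nutlin samples were above all 10 vehicle samples, and the gap between the groups was wider than either group's range. The LFC was 1.5 ± 0.04 (SE), a 2.82-fold rise (95% CI 2.65 to 2.998) with an edgeR adjusted p of 7.5e-23. The LFC exceeded that of 88.7% of the genes tested. MDM2 went from 245 ± 33.2 to 5564 ± 382 CPM (mean ± SD, n = 10 each), with an LFC of 4.51 ± 0.07 (SE). The rise of PPM1D was thus far below that of MDM2, and 3136 genes had a higher LFC than PPM1D.

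CCNG1 was the most abundant, in TPM, of the 3 genes that rose. The vehicle samples held between 98.1 and 130.0 CPM of CCNG1, with a median of 109, and the nutlin samples between 194 and 240 CPM, with a median of 218. The groups did not overlap. The LFC was 0.98 ± 0.04 (SE), a 1.97-fold rise (95% CI 1.85 to 2.10), with an edgeR adjusted p of 6.79e-18. With an offset for effective length the LFC of CCNG1 was 1.32.

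PPP1R13B, the ASPP family member known as a stimulator of p53, rose in CPM by about as much as CCNG1, from a lower level. It was between 14.99 and 19.7 CPM in the vehicle samples, with a median of 17.6, and between 30.8 and 41.1 CPM in the nutlin samples, with a median of 36.3. All nutlin samples were above all vehicle samples. The LFC was 1.04 ± 0.06 (SE), a 2.06-fold rise (95% CI 1.90 to 2.23), with an edgeR adjusted p of 2.86e-16. The annotated exons of PPP1R13B share 474 bases with ZFYVE21 on the opposite strand, for which the LFC was -0.26 ± 0.06 (SE). The library kit keeps the strand, but whether kallisto was told of it is not given in the sources used here, and the part of ZFYVE21 reads in the PPP1R13B counts was not tested.

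**Figure D1:**
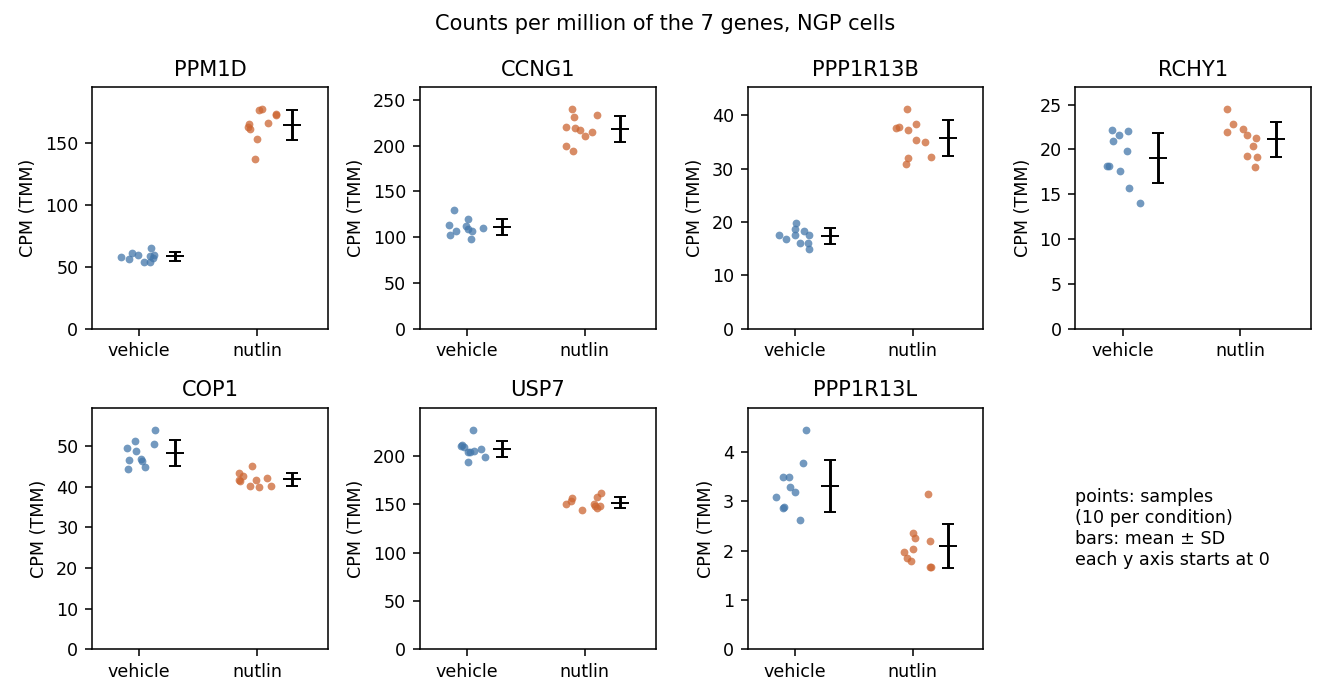
CPM with TMM normalization (y axis, from 0) of the 7 genes in the vehicle and nutlin samples (x axis), with 1 point per sample, 10 per condition, and bars of mean ± SD. PPM1D, CCNG1 and PPP1R13B are higher in every nutlin sample than in any vehicle sample and USP7 is lower, whereas the groups overlap for RCHY1, COP1 and PPP1R13L.

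RCHY1 gave the least clear result of the 7 genes. Its level was between 13.97 and 22.2 CPM in the vehicle samples, with a median of 19.0, and between 18.0 and 24.5 CPM in the nutlin samples, with a median of 21.4. The groups overlapped widely, with 3 nutlin samples above all vehicle samples and 9 above the vehicle median. The LFC was 0.15 ± 0.07 (SE, 95% CI -0.001 to 0.295), and the edgeR adjusted p was 0.0828. RCHY1 was called up with DESeq2 size factors, with DESeq2 and with the filterByExpr filter, at LFCs from 0.19 to 0.22. Its exons share 315 bases with THAP6 on the opposite strand, for which the LFC was 0.52 ± 0.07 (SE), and the part of THAP6 reads in the RCHY1 counts was not tested.

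USP7 fell in every nutlin sample. It was between 194 and 227 CPM in the vehicle samples, with a median of 206, and between 144 and 162 CPM in the nutlin samples, with a median of 151. All 10 nutlin samples were below all 10 vehicle samples. The LFC was -0.45 ± 0.03 (SE), a level 0.73 times that of the vehicle (95% CI 0.70 to 0.76), with an edgeR adjusted p of 1.03e-13.

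COP1 fell by less. It was between 44.4 and 54.0 CPM in the vehicle samples, with a median of 47.8, and between 39.9 and 45.2 CPM in the nutlin samples, with a median of 41.8. Of the nutlin samples 9 were below all vehicle samples and the tenth lay within the vehicle range. The LFC was -0.21 ± 0.04 (SE), a level 0.87 times that of the vehicle (95% CI 0.82 to 0.91), with an edgeR adjusted p of 2.61e-05. This fall was not seen when the protein_coding transcripts alone were summed, with an LFC of 0.01 and an adjusted p of 0.902.

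PPP1R13L was near the limit of what the depth could measure, with between 37 and 67 counts in a vehicle sample and between 26 and 48 in a nutlin sample. In CPM it was between 2.63 and 4.45 in the vehicle samples, with a median of 3.24, and between 1.67 and 3.15 in the nutlin samples, with a median of 2.01. Of the nutlin samples 9 were below all vehicle samples, and the highest of them lay within the vehicle range. The LFC was -0.66 ± 0.12 (SE), a level 0.63 times that of the vehicle (95% CI 0.53 to 0.75), with an edgeR adjusted p of 2.7e-05. The inhibitory and the stimulatory ASPP gene were thus called in opposite directions.

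Complete separation of the conditions was found for 4 of the 7 genes, PPM1D, CCNG1 and PPP1R13B with nutlin above and USP7 with nutlin below. Among all genes tested every nutlin sample was above every vehicle sample for 12.2%, and every nutlin sample was below for 16.6%.

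**Figure D2:**
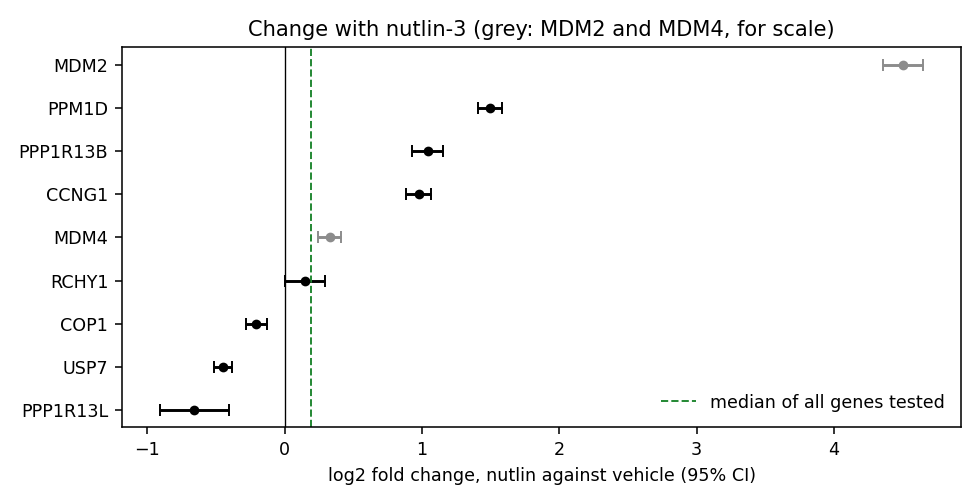
LFC of nutlin against vehicle (x axis, log2 scale) with 95% CI for the 7 genes in black and MDM2 and MDM4 in grey, from the edgeR fit to 10 samples per condition, with the median of all genes tested at 0.19 as a dashed line. PPM1D, PPP1R13B and CCNG1 lie from 0.98 to 1.5, well below MDM2 at 4.51, and the interval of RCHY1 reaches 0.

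Levels of different genes were compared in TPM, the unit of kallisto that takes transcript length into account. In the vehicle samples CCNG1 had 71.1 ± 4.79 TPM and USP7 65.5 ± 6.48 TPM (mean ± SD, n = 10 each), and their ranges overlapped. COP1 followed with 24.2 ± 1.47 TPM, then PPM1D with 19.3 ± 0.87 and RCHY1 with 15.6 ± 2.15 TPM, and the ranges of PPM1D and RCHY1 overlapped. PPP1R13B had 7.82 ± 1.46 and PPP1R13L 2.21 ± 0.62 TPM, and all other neighbours in this order were apart.

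In the nutlin samples the order was different. CCNG1 remained first with 178 ± 11.97 TPM, and PPM1D followed at 58.6 ± 5.11 TPM, ahead of USP7 at 50.1 ± 4.31 TPM with overlapping ranges. COP1 (20.4 ± 1.39 TPM) overlapped with RCHY1 (17.3 ± 2.30 TPM), and RCHY1 with PPP1R13B (15.7 ± 1.95 TPM). PPP1R13L was last with 1.64 ± 0.29 TPM, apart from PPP1R13B. PPM1D thus moved from below COP1 in the vehicle samples to above it in the nutlin samples, with no overlap in either condition. On protein_coding transcripts alone their vehicle ranges overlapped, at between 8.06 and 16.3 TPM for PPM1D and between 14.6 and 19.2 TPM for COP1, while the nutlin samples stayed apart. A sum over these transcripts alone cannot exceed the sum over all transcripts of a gene. In the vehicle mean it was 28.8 TPM for USP7 and 2.49 TPM for PPP1R13B.

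**Figure D3:**
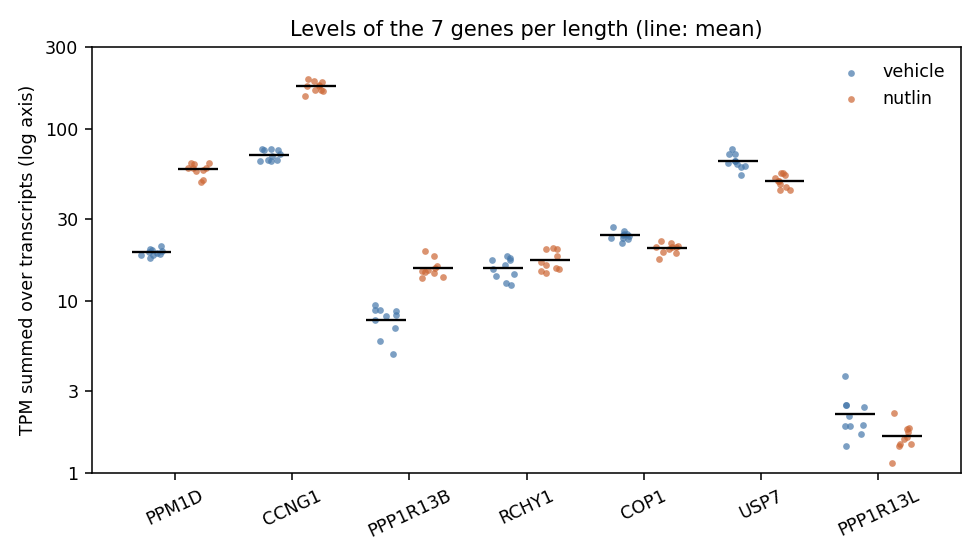
TPM summed over transcripts (y axis, log scale) of the 7 genes (x axis), with 1 point per sample, 10 vehicle and 10 nutlin, and a line at the mean. CCNG1 is highest in both conditions, at 71.1 and 178 TPM, and PPP1R13L lowest, at 2.21 and 1.64 TPM.

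The genes that varied most like each of the 7 genes within the conditions were looked for among the 9880 genes whose mean reached 10 CPM. The measure was Pearson's r of the deviations from the condition mean on the log2 CPM scale, over 20 samples that share library and depth between genes, and it is given as a description. For PPM1D it was highest with ACSS2 (r = 0.90) and TYMS (r = 0.87). For CCNG1 it was highest with YWHAQ and CSE1L (r = 0.90 for both), and both of these fell with nutlin, with LFCs of -1.21 and -0.93. For RCHY1 the genes were ZNF770 (r = 0.92) and TM9SF3 (r = 0.91), and for USP7 they were PIK3R3 (r = 0.87) and GAPVD1 (r = 0.83). PPP1R13B varied most like OLFM1 and SYNDIG1 (r = 0.86 for both). The values were lower for COP1, with AHCYL1 (r = 0.75) and NRM (r = 0.74), and for PPP1R13L, with KRI1 (r = 0.71) and TUBB2A (r = 0.70). Among the 7 genes themselves the highest r was 0.65, between PPM1D and CCNG1, and the lowest was -0.44, between USP7 and PPP1R13L.

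The transcripts of the 7 genes were examined next. Of the 86 transcripts 36 passed the filter on low counts, and of these 15 were called up, 5 down and 16 not. Of the 52346 transcripts tested 26.4% were up and 22.7% down. A change in the proportions of a gene's transcripts was tested with diffSpliceDGE of edgeR, which called 22% of 10063 genes. Of the 7 genes it called COP1 (adjusted p = 0.00572) and USP7 (adjusted p = 7.61e-06). kallisto splits reads among transcripts that share most of their exons, so the level of a transcript rests on the few reads that tell it apart.

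For COP1 only 1 of the 4 transcripts tested was called down. COP1-203 is annotated as a target of nonsense-mediated decay, the pathway that degrades mRNAs with an early stop codon. It held 6.02 ± 1.37 TPM in the vehicle and 2.53 ± 0.56 TPM in the nutlin samples (mean ± SD, n = 10 each). Its estimated counts were between 120 and 198 in the vehicle samples, with a median of 172, and between 38 and 100 in the nutlin samples, with a median of 70. The groups did not overlap. The LFC was -1.14 ± 0.15 (SE) with an edgeR adjusted p of 1.99e-06, and the change relative to the rest of COP1 was -0.99 on the log2 scale with an adjusted p of 0.00431. Its share of the TPM of COP1 was 24.8% ± 5.38 with vehicle and 12.4% ± 2.54 with nutlin (SD, n = 10 each).

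The protein_coding transcripts of COP1 did not pass the test. COP1-202 had 8.33 and 7.70 TPM in the mean of the vehicle and the nutlin samples, with an LFC of -0.02 ± 0.14 (SE). COP1-204 had 6.02 and 6.06 TPM, with an LFC of 0.11 ± 0.11 (SE), and COP1-201 had 2.58 and 2.45 TPM, with an LFC of 0.03 ± 0.42 (SE). These LFCs are from the transcript fit, which was filtered and normalized apart from the gene fit. With a filter of at least 1 count in each condition they were -0.11 for COP1-202, 0.03 for COP1-204 and -0.06 for COP1-201, none of them called. The protein_coding transcripts together held between 14.6 and 19.2 TPM in the vehicle and between 13.8 and 17.7 TPM in the nutlin samples. The ranges overlapped over most of their length.

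**Figure D4:**
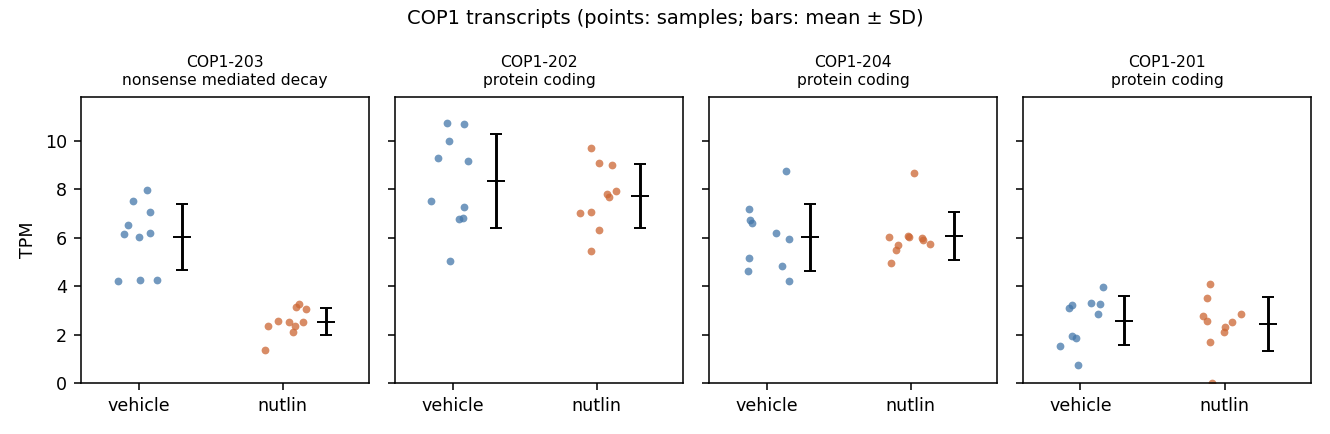
TPM (y axis, from 0) of the 4 COP1 transcripts with at least 10% of the TPM of the gene, in the vehicle and nutlin samples (x axis), with 1 point per sample and bars of mean ± SD (n = 10). COP1-203 is lower in every nutlin sample than in any vehicle sample, with means of 6.02 and 2.53 TPM, and the groups overlap for the other transcripts.

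The internal exons by which COP1-203 differs from COP1-204 are shown because COP1-203 was the transcript called. Their first exons also differ in length, and which reads carried the call was not tested. COP1-203 lacks exons 4 and 5 of COP1-204, which are coding and together have 197 bases, not a multiple of the codon length. Its annotated coding sequence has 337 bases, against 2193 in COP1-204. The 337 bases are not a multiple of the codon length either, so this annotation may be incomplete. The effect of the skipped exons cannot be read from these lengths. The exons are given from GRCh38, 5′ to 3′ on the minus strand. The third line is the junction in COP1-203, with the last 15 bases of the exon before in lower case and the first 15 of the exon after in capitals, and it spans the positions given with the introns and the skipped exons left out.
COP1-204 exon 4, chr1:176163815-176163891: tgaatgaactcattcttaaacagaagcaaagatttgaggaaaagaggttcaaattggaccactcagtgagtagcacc
COP1-204 exon 5, chr1:176162869-176162988: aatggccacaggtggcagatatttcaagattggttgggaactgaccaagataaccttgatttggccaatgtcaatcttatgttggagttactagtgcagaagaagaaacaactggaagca
COP1-203 junction, chr1:176149060-176175924: atcctaatttcttggGAATCACATGCAGCC

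For PPM1D all 3 transcripts tested rose. PPM1D-201, which encodes the full-length phosphatase, went from 7.45 ± 0.63 to 16.6 ± 1.88 TPM (mean ± SD, n = 10 each), with an LFC of 1.26 ± 0.07 (SE) and an edgeR adjusted p of 7.97e-13. PPM1D-204, a protein_coding transcript with a shorter coding sequence of 1314 against 1815 bases, went from 4.82 ± 2.67 to 17.3 ± 3.83 TPM, with an LFC of 1.92 ± 0.34 (SE). PPM1D-202, annotated as a target of nonsense-mediated decay, went from 6.95 ± 2.13 to 24.1 ± 3.57 TPM, with an LFC of 1.90 ± 0.13 (SE). The share of PPM1D-201 in the TPM of the gene was between 34.3% and 43.2% in the vehicle and between 26.2% and 30.2% in the nutlin samples, with no overlap. The proportions were nevertheless not called by diffSpliceDGE (adjusted p = 0.169), whereas limma diffSplice called them (adjusted p = 0.00158).

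PPM1D-202 holds an exon at chr17:60656932-60657042, of 111 bases, that PPM1D-201 lacks, and it is also annotated with shorter first and last exons. The extra exon is shown up to its stop codon, from GRCh38, 5′ to 3′ on the plus strand, with the stop codon in capitals.
PPM1D-202 extra exon, chr17:60656932-60656964: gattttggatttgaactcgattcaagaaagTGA

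For CCNG1, 7 of 9 transcripts tested were up and 2 were not called. CCNG1-201, the main protein_coding transcript, went from 41.3 ± 7.25 to 66.3 ± 12.1 TPM (mean ± SD, n = 10 each), with an LFC of 0.79 ± 0.10 (SE) and an edgeR adjusted p of 6.58e-07. CCNG1-209, for which no coding sequence is defined, went from 12.6 ± 4.45 to 35.0 ± 6.09 TPM, with an LFC of 1.58 ± 0.18 (SE). CCNG1-211, which retains an intron, went from 5.21 ± 3.92 to 25.5 ± 8.89 TPM, with an LFC of 2.35 ± 0.47 (SE). The protein_coding transcripts held 67.6% ± 8.36 of the TPM of CCNG1 with vehicle and 47.3% ± 4.88 with nutlin (SD, n = 10 each), with overlapping ranges. The proportions of CCNG1 as a whole were not called by diffSpliceDGE (adjusted p = 0.0941). In that test the single transcript CCNG1-203, which also retains an intron and is named after its values were seen, was up by 1.82 on the log2 scale relative to the rest of CCNG1 (adjusted p = 0.0365). The proportions were called by limma diffSplice (adjusted p = 0.000706) and with a minimum count of 50 (adjusted p = 0.00782). On its protein_coding transcripts alone the LFC of CCNG1 was 0.80, still called.

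For USP7 the abundant transcripts all fell. USP7-208, annotated as a target of nonsense-mediated decay, went from 21.9 to 14.2 TPM in the mean, with an LFC of -0.53 ± 0.04 (SE) and an edgeR adjusted p of 1.99e-09. The protein_coding USP7-202 went from 20.7 to 15.8 TPM, with an LFC of -0.29 ± 0.07 (SE), and the protein_coding USP7-201 from 7.56 to 4.88 TPM, with an LFC of -0.52 ± 0.11 (SE). USP7-210, singled out after its values were seen, was the only USP7 transcript called up, with an LFC of 1.23 ± 0.47 (SE) and an adjusted p of 0.0345. Its counts were widely scattered, between 15 and 110 in the vehicle samples, with a median of 47, and between 2 and 243 in the nutlin samples, with a median of 126. Its share of the TPM of USP7 was 1.75% and 5.01% in the mean of the vehicle and nutlin samples. Relative to the rest of USP7 it was up by 1.61 on the log2 scale, with an adjusted p of 3.52e-06, and no other USP7 transcript was called in that test. The call of its own LFC was lost with limma voom (adjusted p = 0.313) and with a filter of at least 1 count in each condition (adjusted p = 0.0818).

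The remaining 3 genes were called in no test of proportions, with adjusted p values of 0.288 for PPP1R13B, 0.876 for RCHY1 and 0.991 for PPP1R13L. For PPP1R13B 4 of 5 transcripts tested were up. They included the protein_coding PPP1R13B-201, which went from 2.13 ± 0.25 to 4.12 ± 0.95 TPM (mean ± SD, n = 10 each), with an LFC of 1.05 ± 0.10 (SE). PPP1R13B-217, a short transcript with a retained intron, had 0.92 and 1.88 TPM in the mean and was not tested. For RCHY1 the 5 transcripts tested had edgeR adjusted p values from 0.315 to 0.699. The most abundant of them were RCHY1-208, with 3.95 and 4.69 TPM in the mean, and RCHY1-209, with 4.12 and 4.43 TPM. RCHY1-201 had 2.09 and 2.17 TPM, RCHY1-204 had 1.2 and 2.08 TPM, and RCHY1-207 had 2.28 and 1.55 TPM. For PPP1R13L only transcripts with a retained intron passed the filter. PPP1R13L-204 had 0.61 and 0.37 TPM, with an LFC of -0.59 ± 0.23 (SE) and an edgeR adjusted p of 0.0409, a call that was lost with limma voom (adjusted p = 0.125) and with a filter of at least 1 count in each condition (adjusted p = 0.0572). PPP1R13L-203 had 0.42 and 0.31 TPM and was not called. Of the protein_coding transcripts PPP1R13L-202 had 0.26 and 0.10 TPM, PPP1R13L-209 had 0.37 and 0.42 TPM, and PPP1R13L-205 had 0.27 and 0.03 TPM.

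Of 20 other genes that restrain p53, 4 were called up, 13 down and 3 not, against 32.4% of mRNA genes up and 38.5% down. Their median LFC was -0.28, against 0.19 over all genes and -0.01 over mRNAs. MDM2 was up most, followed by TRIM24, a ubiquitin ligase for p53, with an LFC of 0.59 ± 0.04 (SE). MDM4, which binds p53 together with MDM2, went from 153 ± 12.5 to 191 ± 7.32 CPM, with an LFC of 0.33 ± 0.04 (SE) and all nutlin samples above all vehicle samples. The LFC of MDM4 depended on the processing and was 0.88 with an offset for effective length. The largest falls were those of AURKA, a mitotic kinase, with an LFC of -2.59 ± 0.06 (SE), the deubiquitinase USP2 (-1.51 ± 0.15) and the methyltransferase SMYD2 (-0.85 ± 0.05). PPM1D was thus second to MDM2 in LFC when the 7 genes and these 20 are set side by side. For scale, 16 of 16 listed p53 targets were up, against 32.4% of mRNA genes. Earlier results of these data were known when they were listed, so the count is no test. The median LFC of the 16 targets was 3.78, with GDF15, FAS and BBC3 highest. The lowest LFC among them was that of AEN, a nuclease gene named after its value was seen, at 1.08 ± 0.04 (SE).

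Of 15 relatives of PPM1D in its phosphatase family 6 were up, 8 down and 1 not called, against 32.4% of mRNA genes up and 38.5% down, and with DESeq2 size factors, filterByExpr or DESeq2 4 were down. The LFC was 1.45 ± 0.21 (SE) for PPM1H and 1.42 ± 0.22 for PPM1J, both below 3 CPM in every sample, and 0.72 ± 0.12 for PPM1M. PPM1B (-0.95 ± 0.04), PPM1G (-0.92 ± 0.04) and PPM1E (-0.52 ± 0.05) fell most. Of 7 kinases and substrates that PPM1D acts against, 1 was up, 5 were down and 1 was not called, against 32.4% of mRNA genes up and 38.5% down, and under the same alternatives 2 were up. ATM, the kinase that starts the response to DNA breaks, had an LFC of 0.58 ± 0.06 (SE). CHEK1 (-2.06 ± 0.05), H2AX (-1.68 ± 0.06) and CHEK2 (-1.10 ± 0.12), which act downstream of ATM and its relative ATR, fell most.

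Of 11 relatives of cyclin G1 and subunits of PP2A, 2 were up, 7 down and 2 not called, against 32.4% of mRNA genes up and 38.5% down. CCNG2, the closest relative of CCNG1, was up with an LFC of 0.47 ± 0.06 (SE). Of the regulatory subunits through which cyclin G1 binds PP2A, PPP2R5B was up (0.81 ± 0.08), and PPP2R5D (-1.0 ± 0.04) and PPP2R5E (-0.83 ± 0.05) were down, as was the catalytic subunit PPP2CA (-0.64 ± 0.03).

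Of 12 subunits and adaptors of the COP1 ligase, 3 were up and 9 down, against 32.4% of mRNA genes up and 38.5% down. The 3 were the Tribbles proteins, which hand substrates to COP1. TRIB3 went from between 8.25 and 10.5 CPM to between 86.6 and 141 CPM, with an LFC of 3.61 ± 0.07 (SE). TRIB2 (0.52 ± 0.05) and TRIB1 (0.38 ± 0.04) rose by less. Of the ligase machinery RBX1 (-0.81 ± 0.07), the ubiquitin-conjugating enzyme UBE2D2 (-0.66 ± 0.03) and the scaffold CUL4B (-0.52 ± 0.05) fell most.

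Of 8 listed USP7 partners 7 were tested and all 7 were down, against 38.5% of mRNA genes. The median LFC was -1.03. UHRF1 (-2.95 ± 0.04, SE) and DNMT1 (-1.23 ± 0.04), which copy DNA methylation after replication and are kept stable by USP7, fell most, with GMPS (-1.04 ± 0.03), an enzyme of guanine synthesis that binds USP7. Of 6 relatives and partners of the ASPP genes, 2 were up and 4 down, against 32.4% of mRNA genes up and 38.5% down, and with filterByExpr, which leaves out YAP1, 1 was up. TP53BP2 (ASPP2), known as a stimulator of p53 like PPP1R13B, fell with an LFC of -0.99 ± 0.04 (SE), in the direction opposite to PPP1R13B. The PP1 catalytic subunits PPP1CC (-0.97 ± 0.04) and PPP1CA (-0.88 ± 0.04), to which the ASPP proteins bind, fell as well. RELA was up by an LFC of 0.16 ± 0.05 (SE), and YAP1 was between 0 and 0.122 CPM in the vehicle and between 0.360 and 1.12 CPM in the nutlin samples.

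**Figure D5:**
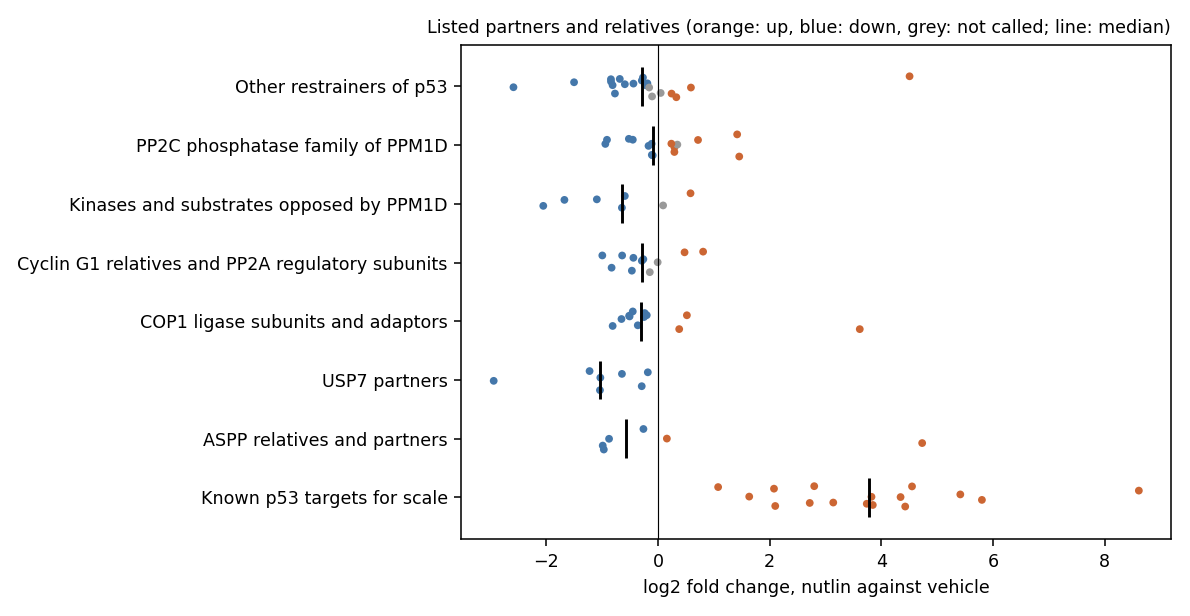
LFC of nutlin against vehicle (x axis, log2 scale) of the listed partners and relatives (y axis), with 1 point per gene, orange where called up, blue where called down and grey where not called at 5% FDR, and a line at the median of each list. The medians lie from -1.03 for the USP7 partners to -0.10 for the phosphatase family of PPM1D, and at 3.78 for the p53 targets.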

How the data were processed

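RNA-seq of 20 samples of NGP cells was used, and samples were grouped by the treatment in their labels. Poly(A) RNA was sequenced as paired reads with a stranded kit. The authors quantified the reads with kallisto 0.42.4 on transcripts of GRCh38 (hg38 in the submitters' processing notes) from an older Ensembl release. The estimated counts were deposited by the authors per transcript, with no normalization. The TPM values were computed by the authors' kallisto runs from these counts, effective length and depth. They served to describe levels of genes and transcripts within and between conditions, and not for tests. They take effective length into account and have no TMM scaling, so TPM ratios between conditions can differ from the LFCs. For CCNG1 the LFC was 0.98, and 1.32 with the offset for effective length. The effective lengths in the deposited files were used in 1 alternative.

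Of 198968 transcripts 191106 were matched by identifier to GENCODE release 44, the other 7862 were dropped, and the gene sums of the estimated counts were rounded. The test covered protein-coding and lncRNA genes that had 1 count or more in both conditions. It was the edgeR 4.0.16 (R 4.3.3) quasi-likelihood test after TMM normalization, with no term but the condition, and p-values were adjusted by Benjamini-Hochberg for an FDR of 5%. The SE of an LFC was its size divided by the root of the F statistic. Transcripts were tested the same way after filterByExpr with a minimum count of 10, and proportions with diffSpliceDGE and the Simes method. limma 3.58.1 and DESeq2 1.42.0 served for alternatives. The scripts were tested on simulated data with 200 genes changed. Tables and plots were made in Python 3.11.15.

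The 7 genes and the lists of partners were chosen with earlier results of these data known. Of their transcripts, those with at least 10% of the gene's TPM in either condition are named, and of each list MDM2, MDM4 and up to 3 called genes with the largest LFC in each direction. The labels give 8 replicate numbers in both conditions. Deviations of same-numbered samples correlated at -0.22 to 0.17 (Pearson's r over 9880 genes), so the numbers were not taken to pair the samples. Alternatives were other normalizations, filters, tools, biotypes and thresholds, a length offset and the replicate number as a block. Amino acid sequences were not used here.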

Additional observations from a re-analysis of the deposited data

Results flagged for a closer look

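The share of a transcript in the TPM of its gene was checked for single samples that stood apart from the other 9 of their condition, in 66 groups of 10 samples. Chance flags about 1 in 20 such groups, and 3 were flagged. RCHY1-204 took 25.3% of the TPM of RCHY1 in vehicle replicate 12, against 10.2% in the next sample. COP1-204 took 44.9% of the TPM of COP1 in nutlin replicate 1, against 32.5% in the next sample. PPP1R13L-205 took 59.8% of the TPM of PPP1R13L in vehicle replicate 8, against 15.4% in the next sample, at between 0 and 7 estimated counts per vehicle sample. None of these transcripts was called at 5% FDR by edgeR, and PPP1R13L-205 did not pass the filter on low counts.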

How the results depend on the processing

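PPM1D, CCNG1, PPP1R13B, USP7 and PPP1R13L kept their direction and their call under all 11 gene-level alternatives. Their lowest and highest LFCs were 1.35 and 1.6 for PPM1D, 0.80 and 1.32 for CCNG1, 1.0 and 1.12 for PPP1R13B, -0.46 and -0.37 for USP7, and -0.94 and -0.41 for PPP1R13L. RCHY1 was called up at an LFC of 0.1945 with DESeq2 size factors (adjusted p = 0.0214), 0.1955 with DESeq2 (adjusted p = 0.0191) and 0.2242 with filterByExpr (adjusted p = 0.00812). The LFCs of all 7 genes were higher in each of these alternatives than in the test used for the Results. With filterByExpr PPM1D went from 1.4961 to 1.5736, COP1 from -0.2071 to -0.1297 and USP7 from -0.4497 to -0.3727. RCHY1 went from 0.1471 to 0.2242, and the cause of its call was not tested. The LFC of COP1 turned to 0.0082 (adjusted p = 0.902) on its protein_coding transcripts, a sum that leaves out COP1-203. DESeq2 size factors shifted the median LFC of all genes by 0.05. With a replicate block over 16 samples, 3 of the 7 genes were called up and 3 down, as without it, with LFCs of 1.5 for PPM1D, 0.15 for RCHY1 and -0.20 for COP1, and over all genes 7519 up and 6757 down. No call of the 7 genes changed with the block.

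In the lists, 4 relatives of PPM1D were down with DESeq2 size factors, filterByExpr and DESeq2, and 2 of the kinases and substrates were up with each of these. With filterByExpr 1 ASPP partner was up. limma diffSplice called 4855 genes, 4 of the 7 among them, against 2215 and 2 with diffSpliceDGE. Small transcript LFCs that were not called changed sign, namely COP1-201 (-0.0568 with at least 1 count in each condition, -0.4668 with limma voom), RCHY1-209 (-0.0901) and COP1-202 (0.0018) with limma voom, and the relative changes of RCHY1-201 (0.0016) and COP1-201 (-0.2786) with limma diffSplice. PPP1R13L-204 lost its call with at least 1 count in each condition (adjusted p = 0.0572) and with limma voom (adjusted p = 0.125).

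On protein_coding transcripts alone, the mean TPM with vehicle and with nutlin was 12.3 and 34.0 for PPM1D, 48.0 and 83.9 for CCNG1, 6.8 and 7.42 for RCHY1, 17 and 16.3 for COP1, 28.8 and 21.9 for USP7, 1.15 and 0.796 for PPP1R13L, and 2.49 and 4.96 for PPP1R13B. Depth limits PPP1R13L most, with 26 counts in its lowest sample. Of the genes most like each of the 7, 10 of 14 were found with DESeq2 size factors too.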
